A study of Mus musculus with 2 samples.

Results

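The ephrins, their Eph receptors, the semaphorins and the plexins were followed in mouse bone marrow stromal cells before and after total body irradiation. The members were all genes whose platform symbol begins with Efna, Efnb, Epha, Ephb, Sema or Plxn. This gave 50 of the 16446 genes named on the array: 5 ephrin-A ligands, 3 ephrin-B ligands, 9 EphA receptors, 5 EphB receptors, 20 semaphorins and 8 plexins, each with 1 probe. The cells came from C57BL/6 mice that were left unirradiated or taken 1 day or 3 days after 9.5 Gy. Each time point was measured on 1 array, with unirradiated RNA labelled with Cy5 and irradiated RNA with Cy3. The dyes were the same way round on both arrays, so an effect of the dye cannot be told apart from one of irradiation. The series description names 6 mice, without their age or how they were shared out among the groups, and how the stroma was separated is not stated in the sources used here. A single array per time point leaves no replicate error and allows no test, so differences are described by size only.

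Ephrins are cell-surface ligands, held in the membrane by a lipid anchor in the A class and by a transmembrane segment in the B class. They bind Eph receptor tyrosine kinases on neighbouring cells, and both partners signal, which moves cells apart or holds them within a boundary. Semaphorins are secreted or membrane-bound guidance proteins that signal through plexins, and most secreted class 3 semaphorins do so with a neuropilin as co-receptor. In blood vessels, ephrin-B2 marks arteries and its receptor EphB4 marks veins, while Sema3e acts on plexin D1 of endothelial cells. In bone, ephrin-B2, EphB4, Sema3a and Sema4d pass signals between osteoclasts and osteoblasts, and several class 4 semaphorins act between leukocytes.

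For each probe the authors deposited a log ratio between the channels, read here as log2. The sources used here name neither the base of the logarithm nor the numerator. Genes that p53 switches on after irradiation had a median log2 ratio of 1.54 at day 1 (19 genes) and 1.36 at day 3 (20 genes), against 0.88 and -3.17 for mitotic genes (20 and 16 genes). A positive value is therefore taken to mean more transcript after irradiation. That direction is likely but not settled by the labels, and with the sign turned every "higher" would become "lower". The median over all genes of an array was set to 0. A gene counts as higher or lower once its log2 ratio reaches 1 in size, that is 2-fold.

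A ratio was given for 34 of the 50 members at day 1 and 40 at day 3, with 32 on both arrays. For 8 members neither array had one: Efna3, Epha1, Epha5, Epha6, Epha8, Plxna3, Sema4b and Sema6b. Ratios were absent for 32.0% of members at day 1 and 20.0% at day 3, against 36.5% and 30.5% of all named genes. As a gauge of probe error, genes with several probes had a pooled log2 SD between them of 0.78 at day 1 (69 genes) and of 0.57 at day 3 (91 genes), and each member has only 1 probe.

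At day 1, Sema4a, Sema4f, Sema4d and Epha4 were at least 2-fold higher, while Ephb4, Ephb3, Sema3a, Sema3c and Sema5a were at least 2-fold lower. Of the 34 members with a ratio, 4 were at least 2-fold higher (11.8%), where 19.6% of all genes were, and 5 at least 2-fold lower (14.7%), where 11.1% of all genes were. The median of the members was -0.19, which turned to 0.0031 with the peak of the density of all genes at 0 (all genes 0.19 higher at day 1) and to 0.30 with ribosomal protein genes at 0. The counts at day 1 became 6 higher and 3 lower with the density peak at 0, and 6 higher and 1 lower with ribosomal protein genes at 0.

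At day 3, Sema3g, Efnb2, Epha2, Sema3e, Efna1, Plxnd1 and Plxna2 were at least 2-fold higher, and Plxna1 and Plxnb3 were lower. Of 40 members, 7 were at least 2-fold higher (17.5%, against 7.37% of all genes) and 2 at least 2-fold lower (5.0%, against 6.84%), with a median of 0.29. Setting ribosomal protein genes to 0, which raised all genes by 0.49 at day 1 and 0.53 at day 3, gave 15 higher and 0 lower at day 3. The 8 added were Efna5, Epha10, Ephb4, Plxnb2, Sema3f, Sema4d, Sema5b and Sema6d. No member was past 2-fold on both arrays with the gene median at 0. Sema3g was higher on both with the density peak at 0. With ribosomal protein genes at 0, Sema3g and Sema4d were higher on both, and Ephb4 was past 2-fold lower at day 1 and higher at day 3.

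**Figure D1:**
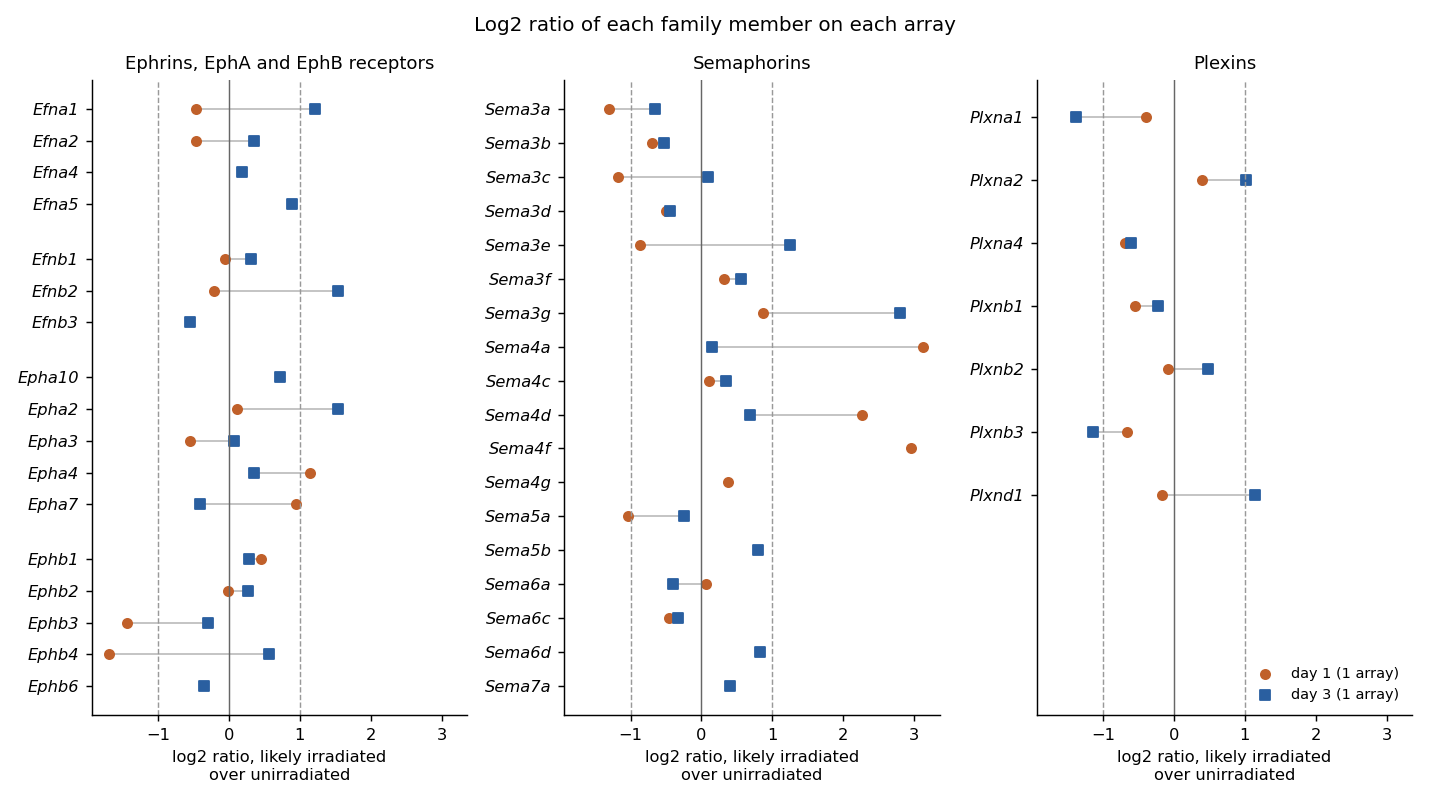
Log2 ratio of every member with a value at day 1 (circles) and day 3 (squares), in panels for ephrins with Eph receptors, semaphorins and plexins; dashed lines mark 2-fold in either direction, and each symbol is 1 array. Sema4a, Sema4f and Sema4d lie farthest right at day 1, and Sema3g at day 3.

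A list of 8 members used in endothelial cells was set apart: Efna1, Efnb1, Efnb2, Epha2, Ephb4, Plxnd1, Sema3f and Sema3g. At day 3, 5 of these 8 reached 2-fold higher (62.5%, against 7.37% of all genes) and 0 reached 2-fold lower (against 6.84%), and their median log2 ratio was 1.18. Among the 32 other members with a ratio, 2 were higher and 2 lower, with a median of 0.12. At day 1 none of the 8 was at least 2-fold higher (against 19.6% of all genes) and 1, Ephb4, was lower (against 11.1%), with a median of -0.11 that turned to 0.08 with the density peak at 0 and to 0.38 with ribosomal protein genes at 0. The list was chosen with earlier results of these data known, so the count describes these genes and supports no wider statement.

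The upstream sequences of Sema3g, Efnb2, Epha2 and Plxnd1, all at least 2-fold higher at day 3, and of Ephb4, the lowest member at day 1, are shown because the results on endothelial members turn on these genes. Each is the 250 bases before the annotated start, 5′ to 3′ on the gene's strand, from RefSeq (GRCm38.p6). Capitals mark GGAA on either strand (TTCC as read here), the core of sites bound by ETS transcription factors, a family active in endothelial cells.
Sema3g: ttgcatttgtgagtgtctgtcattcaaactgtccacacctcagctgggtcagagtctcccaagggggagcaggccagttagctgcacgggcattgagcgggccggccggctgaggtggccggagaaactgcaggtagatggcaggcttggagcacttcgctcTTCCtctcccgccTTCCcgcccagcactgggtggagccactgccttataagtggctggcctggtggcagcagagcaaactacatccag
Efnb2: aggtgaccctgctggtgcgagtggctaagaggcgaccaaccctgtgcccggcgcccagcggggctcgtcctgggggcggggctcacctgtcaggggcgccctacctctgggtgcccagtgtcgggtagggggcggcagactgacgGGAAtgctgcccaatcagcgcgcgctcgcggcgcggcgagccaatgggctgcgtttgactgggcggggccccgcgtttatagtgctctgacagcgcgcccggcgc
Epha2: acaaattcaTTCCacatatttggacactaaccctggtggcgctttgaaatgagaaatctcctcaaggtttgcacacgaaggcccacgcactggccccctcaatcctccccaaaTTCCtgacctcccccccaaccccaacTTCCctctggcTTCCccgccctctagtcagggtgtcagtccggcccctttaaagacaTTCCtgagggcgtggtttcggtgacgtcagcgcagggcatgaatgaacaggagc
Plxnd1: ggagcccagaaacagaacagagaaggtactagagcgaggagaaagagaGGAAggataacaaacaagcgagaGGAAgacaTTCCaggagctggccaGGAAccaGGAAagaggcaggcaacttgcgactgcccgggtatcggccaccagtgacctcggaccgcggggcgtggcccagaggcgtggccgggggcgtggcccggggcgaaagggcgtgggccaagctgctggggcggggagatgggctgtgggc
Ephb4: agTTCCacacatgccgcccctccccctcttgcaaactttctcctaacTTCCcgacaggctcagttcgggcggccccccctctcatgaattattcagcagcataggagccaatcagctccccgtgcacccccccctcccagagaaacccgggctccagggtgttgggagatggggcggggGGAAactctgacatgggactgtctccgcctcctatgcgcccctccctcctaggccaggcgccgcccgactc

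These windows lie at chr14:31217623-31217872 on the plus strand (Sema3g), chr8:8661243-8661492 on the minus strand (Efnb2), chr4:141300971-141301220 on the plus strand (Epha2), chr6:115995006-115995255 on the minus strand (Plxnd1) and chr5:137349859-137350108 on the plus strand (Ephb4). GGAA occurred 5 times each in the Epha2 and Plxnd1 windows, 3 times in Ephb4, 2 times in Sema3g and 1 time in Efnb2. It is a common word: 93.4% of all 32851 windows of this length held it, with a median of 3 matches. The longer forms CCGGAAG and CAGGAAG, which contain GGAA, were in 6.91% and 10.8% of all windows and in none of the windows printed here. A strict form of the p53 site, CATG followed by any 6 bases and CATG again, which reads the same on both strands, was in 0.490% of all windows and in 0 of the 58 windows of members. The table held 44 of the 50 members. Their windows had a median GC content of 64.0% and a median of 15.5 CpG, against 52.4% and 6 over all windows. Sema4d, Sema4f and Sema3a were among the members poor in CpG (1.67 on average over its starts, 4 and 2), while the Efnb2 window held 27.

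Sema3g, a secreted semaphorin of arterial endothelium, had the highest ratio of all members at day 3. Its log2 ratio was 0.86 at day 1 and 2.80 at day 3, or 6.95-fold, above 99.9% of all genes on that array. Efnb2, the arterial ephrin, went from -0.21 to 1.54 (2.91-fold at day 3). Epha2, an Eph receptor of endothelial and epithelial cells that binds ephrin-A1, went from 0.11 to 1.53 (2.89-fold). Its ligand Efna1, which inflammatory cytokines induce in endothelium, stood at -0.46 and 1.21. Plxnd1, the endothelial receptor of Sema3e, was at -0.17 and 1.14. All 5 were above at least 94.5% of genes at day 3, and Efnb2, Epha2, Efna1 and Plxnd1 lay within 2-fold at day 1.

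The other 3 endothelial members were within 2-fold at day 3, though Ephb4 and Sema3f passed it with ribosomal protein genes at 0. Ephb4, the venous receptor of ephrin-B2, was 3.24-fold lower at day 1 (-1.70), below all but 2.18% of genes, and stood at 0.56 at day 3. Sema3f, which signals through neuropilin-2, was at 0.31 and 0.55. Efnb1, an ephrin of several stromal and endothelial cells, was at -0.06 and 0.31. Of the arterial and venous partners Efnb2 and Ephb4, Efnb2 had the higher ratio on each array. Both genes have 1 probe, and the pooled SD between probes was 0.78 at day 1 and 0.57 at day 3.

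General endothelial markers were higher on the same day 3 array. Of 23 listed markers, 22 had a ratio at day 3, with a median of 1.63 and a range of -1.30 to 2.64, and 19 were at least 2-fold higher. The 2 lower ones were Erg (-1.30) and Tal1 (-1.14). At day 1 the median was 0.58 over 20 markers, 6 of them higher and Tal1 (-1.87) lower. At day 3 Sema3g had a higher ratio than any of these markers, the other 7 endothelial members lay inside the marker range, and 7 of the 8 were below the marker median on each array. Erythroid markers had a median of -3.18 at day 1 (8 of 9 lower) and -1.93 at day 3 (8 of 10 lower). Among all genes, 19.6% were higher and 11.1% lower at day 1, and at day 3 it was 7.37% and 6.84%. In a bulk sample, more endothelial cells, fewer other cells and more RNA per endothelial cell cannot be told apart. What part any of these has in the members' ratios was not tested.

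**Figure D2:**
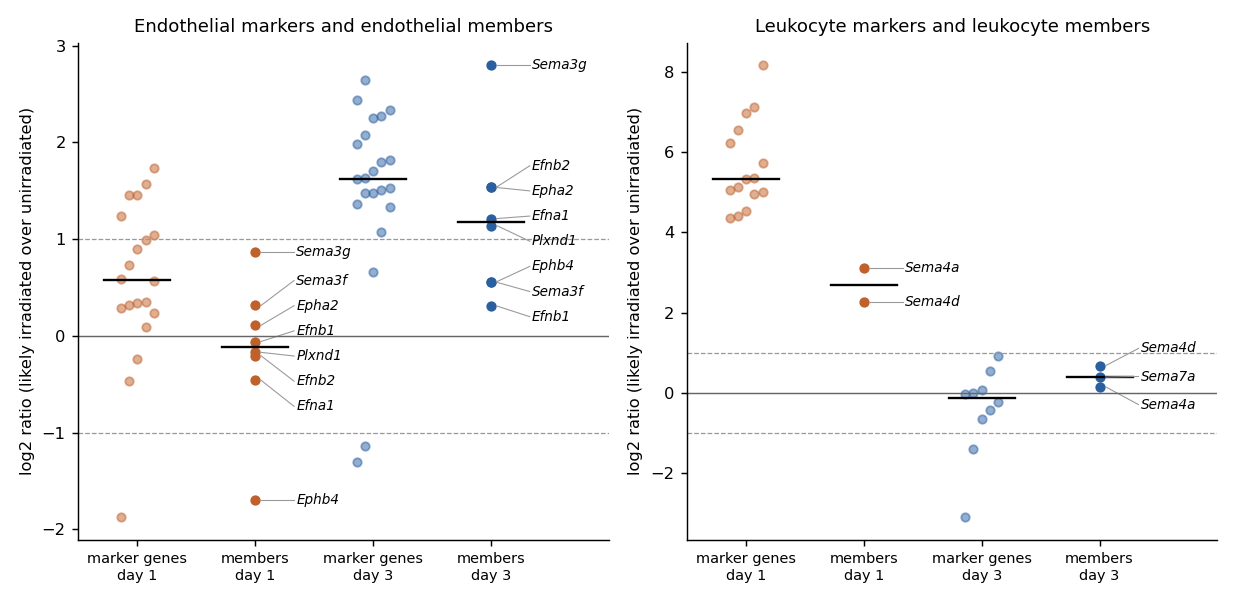
Log2 ratios of marker genes beside family members used in the same cells, for endothelium (left) and leukocytes (right), at day 1 and day 3; each point is 1 gene on 1 array, thick bars are medians and dashed lines mark 2-fold. At day 3 the endothelial markers have a median of 1.63 and the 8 members 1.18, with Sema3g at 2.80. The leukocyte markers are the pan-leukocyte list, and at day 1 Sema4a and Sema4d (3.12 and 2.27) lie below all of them.

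The 4 ephrin ligands measured at day 1 were below 0, and 6 of 7 were above 0 at day 3. The day 1 median turned positive with ribosomal protein genes at 0 for A ligands (0.03) and B ligands (0.36), and with the density peak at 0 for B ligands (0.06). Of the A class, Efna2, a ligand also made by osteoclast precursors, was at -0.46 at day 1 and 0.35 at day 3. Efna5, a broadly used guidance ligand, had only a day 3 ratio (0.89), as had Efna4 (0.19). The 4 ephrin-A ligands with a day 3 ratio had a median of 0.62, and Efna1 was the 1 past 2-fold. Of the B class, Efnb3 was given only at day 3 (-0.55), so that the 3 ligands ran from -0.55 to 1.54.

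Of the receptors, EphB genes held the lowest values at day 1. Among EphA receptors at day 1, Epha4, which binds ephrins of both classes, was 2.21-fold higher (1.15), Epha7 was at 0.95, Epha2 at 0.11 and Epha3 at -0.54. At day 3, Epha4 stood at 0.36, Epha7 at -0.40, Epha3 at 0.08 and Epha10, a receptor without kinase activity, at 0.72, and Epha2 was the 1 of 5 past 2-fold. Among EphB receptors at day 1, Ephb4 (-1.70) and Ephb3 (-1.44, 2.71-fold lower) were both past 2-fold, while Ephb2 (-0.02) and Ephb1 (0.45) were not. At day 3 all 5 EphB receptors were within 2-fold (Ephb4 not so with ribosomal protein genes at 0), from -0.36 for the kinase-inactive Ephb6 to 0.56 for Ephb4, with Ephb3 at -0.29, Ephb2 at 0.27 and Ephb1 at 0.28. The median of the 4 EphB receptors at day 1 was -0.73 and that of the 4 EphA receptors 0.53.

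The secreted class 3 semaphorins were the only semaphorin class with all of its named members measured on both arrays. At day 1 their median was -0.69, with Sema3a (-1.30) and Sema3c (-1.17) at least 2-fold lower. Sema3a repels axons and limits bone resorption, and Sema3c guides neural crest and vascular cells. Sema3e, the ligand of plexin D1, was at -0.87. At day 3, Sema3e was 2.37-fold higher (1.25) and Sema3c was at 0.09, while Sema3a (-0.65), Sema3b (-0.52) and Sema3d (-0.45) were below 0. Sema3b (-0.69) and Sema3d (-0.50) had also been below 0 at day 1. All 7 class 3 genes had a higher ratio at day 3 than at day 1, by 0.06 for Sema3d to 2.11 for Sema3e. Their median difference was 0.66, and 5 of the 7 had a higher ratio with the density peak at 0. Among all genes, 4709 of 9815 had a higher ratio at day 3. The differences of Sema3d, Sema3b (0.17) and Sema3f (0.24) were small beside an SD of 0.97 from the spread between probes.

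Of the class 4 semaphorins, which span the membrane, Sema4a and Sema4d had their higher ratio at day 1. Sema4a, a semaphorin of dendritic and T cells, was at 3.12 at day 1 (8.70-fold higher, above 96.5% of genes) and at 0.16 at day 3. Sema4d, known as CD100 of T cells and a ligand of plexin B1, was at 2.27 (4.81-fold) and 0.68. Sema4f reached 2.96 (7.77-fold) at day 1 and had no day 3 ratio. Sema4c (0.11 and 0.35) and Sema4g (0.38, day 1 only) were within 2-fold, so that 3 of 5 class 4 genes with a day 1 ratio were past it (19.6% of all genes were higher). At day 3 it was 0 of 3, where 7.37% of all genes were higher, and 1, Sema4d, with ribosomal protein genes at 0.

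The class 4 values stood on an array where leukocyte genes were high. Pan-leukocyte markers had a median of 5.33 at day 1 and ranged from 4.36 to 8.17, all 15 of 15 past 2-fold, and granulocyte markers a median of 5.86 with 17 of 17 higher. Macrophage markers were at a median of 2.23 (8 of 13 higher). Of all genes, 19.6% were higher at day 1. At day 3 the medians were -0.13 for pan-leukocyte (10 genes; 0.40 with ribosomal protein genes at 0), -0.70 for granulocyte (11 genes) and 0.82 for macrophage markers (12 genes). Sema4a and Sema4d were below the lowest of these pan-leukocyte markers at day 1. The part of leukocyte RNA in these semaphorin values was not tested. Sema7a, an anchored semaphorin of lymphocytes and other cells, had a day 3 ratio only (0.40), and no probe was named for its receptor Plxnc1 here.

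The remaining semaphorins were within 2-fold but for Sema5a. Sema5a, a transmembrane semaphorin that can bind plexin B3, was at -1.03 at day 1 and -0.25 at day 3. Sema5b (0.80) and Sema6d (0.82), a ligand of plexin A1, had day 3 ratios only. Sema6a was at 0.06 and -0.40, and Sema6c at -0.45 and -0.34.

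Plexins, the semaphorin receptors, lay within 2-fold at day 1, all 7 of them, and went both ways at day 3. Plxna1, used by Sema3a and Sema6d and active in dendritic cells and osteoclasts, was 2.61-fold lower at day 3 (-1.38) after -0.40 at day 1. Plxnb3 was 2.20-fold lower (-1.14) after -0.66. Plxnd1 (1.14) and Plxna2 (1.01), which lies at the threshold, were higher, and Plxna2 had been at 0.39. Plxnb1, the receptor of Sema4d, was at -0.55 and -0.23, Plxnb2 at -0.08 and 0.48, and Plxna4 at -0.69 and -0.61. With ribosomal protein genes at 0, neither Plxna1 nor Plxnb3 was past 2-fold lower, and of the 5 lower members at day 1 only Ephb4 was.

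Known ligand and receptor partners were read side by side. At day 3, both sides of Sema3e with Plxnd1 (1.25 and 1.14) and of Efna1 with Epha2 (1.21 and 1.53) were at least 2-fold higher, while Efnb2 (1.54) and Ephb4 (0.56) were not both past it. Sema4d (2.27) and Plxnb1 (-0.55) lay on opposite sides of 0 at day 1, and both Sema3a (-1.30) and Plxna1 (-0.40) below it. These partners were picked from textbook pairs with the values known.

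The 8 members known from bone signalling lay on both sides of 0. At day 1, Ephb4 and Sema3a were at least 2-fold lower and Sema4d higher, with a median of -0.50 over Sema3a, Sema3b, Sema4d, Plxna1, Plxnb1, Efna2, Efnb2 and Ephb4. At day 3, Efnb2 was higher and Plxna1 lower, with a median of 0.06. Osteoblast markers had a median of -1.10 at day 1 (6 of 10 lower) and -0.64 at day 3 (4 of 11 lower, 1 higher). Mesenchymal markers had a median of -0.50 at day 1 and 0.68 at day 3. Past 2-fold at day 1 were 3 of 15 upward and 3 downward, and at day 3 it was 4 of 14 and 0. Of all genes, 19.6% were higher and 11.1% lower at day 1, and 7.37% and 6.84% at day 3. The 4 were Rgs5 (2.59), Eng (1.79), Mcam (1.78) and Lepr (1.27), and Eng is also on the endothelial marker list. Another 4 of the 14 were below 0. These are ratios and give no level, so the purity of the stromal cells could not be read from them.

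**Figure D3:**
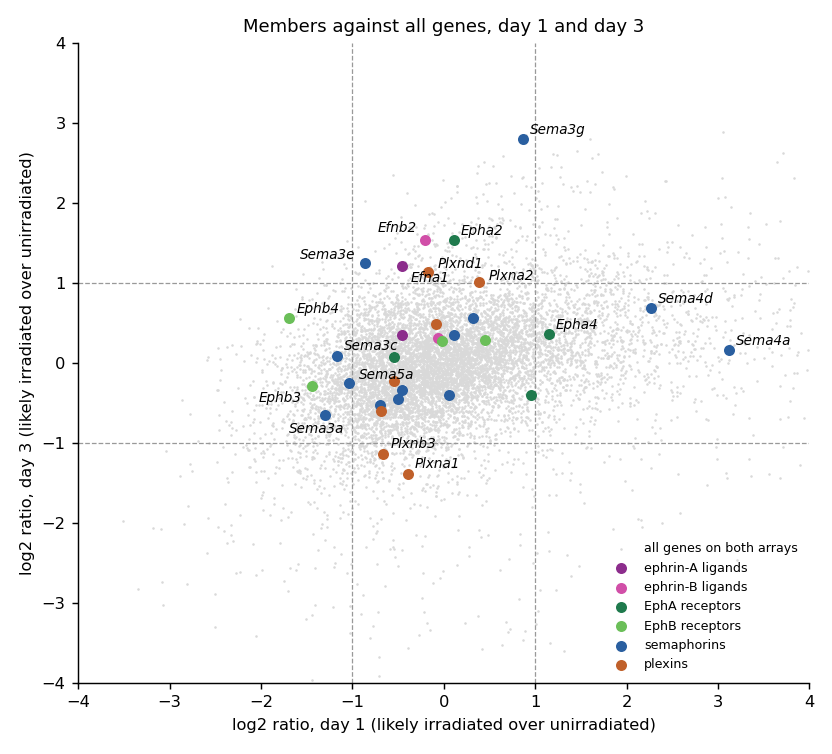
Log2 ratio at day 1 (horizontal) against day 3 (vertical) for the 32 members with a ratio on both arrays, coloured by family, over all 9815 genes measured on both (grey; 179 genes beyond 4 in size on either array are not drawn). Named points are past 2-fold (dashed lines) on at least 1 array; none is past it on both with the gene median at 0.

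Between the arrays, 6 of the 8 endothelial members had ratios at least 2-fold higher at day 3, and Sema4a and Sema4d lower ones. Of the 32 members on both arrays, 9 had a ratio at least 2-fold higher at day 3 than at day 1 (28.1%, against 12.1% of all genes) and 3 at least 2-fold lower (9.38%, against 16.8%). The higher ones were Ephb4 (2.26), Sema3e (2.11), Sema3g (1.93), Efnb2 (1.74), Efna1 (1.67), Epha2 (1.42), Plxnd1 (1.31), Sema3c (1.26) and Ephb3 (1.15). The lower ones were Sema4a (-2.97), Sema4d (-1.59) and Epha7 (-1.35), and Plxna1 was just within 2-fold (-0.99). With the density peak at 0, Ephb3 was no longer past 2-fold and Plxna1 was. Over the 8 endothelial members all differences were above 0, where 4709 of 9815 of all genes were, and 6 of the 8 were past 2-fold. Their median was 1.55, beside 1.28 for endothelial markers (13 of 20 at least 2-fold higher). The rise was not particular to endothelial genes. Mesenchymal markers had a median difference of 1.00 (7 of 13 at least 2-fold higher) and osteoblast markers 0.64 (2 of 10). Pan-leukocyte and granulocyte markers had medians of -5.78 and -7.66. Among the 24 members outside the endothelial list, 3 were higher and 3 lower, with a median of 0.21. Both arrays used unirradiated RNA that may be the same extract, so their values are not independent. The spread between probes would give the difference an SD of 0.97 if it were independent on the arrays.

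**Figure D4:**
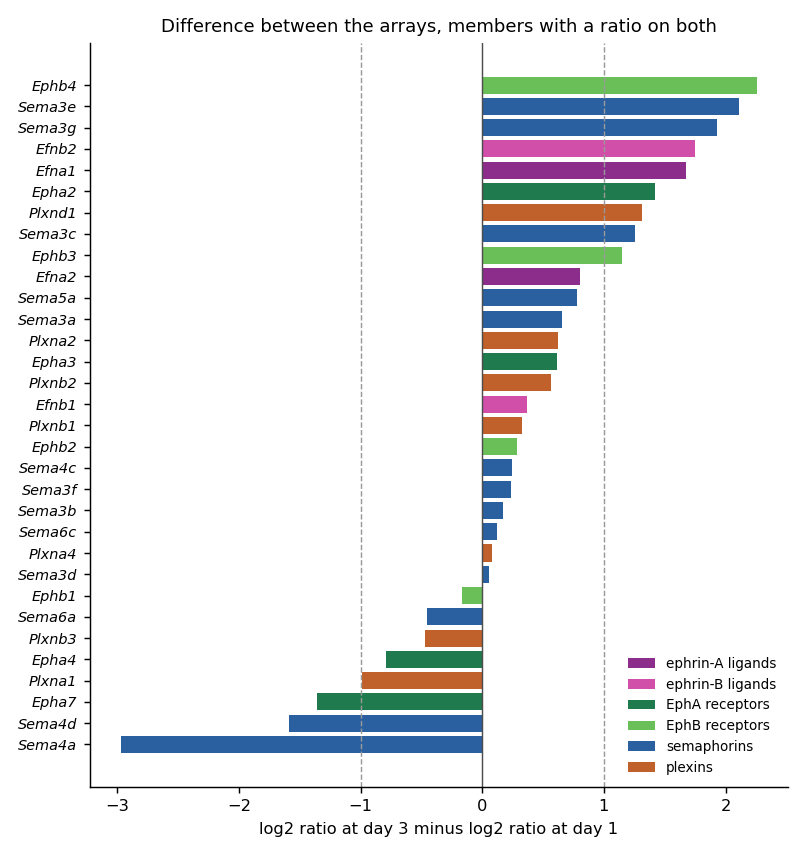
Log2 ratio at day 3 minus that at day 1 for the 32 members with both, ordered by size and coloured by family; dashed lines mark 2-fold. Bars to the right of the upper line are 9 members led by Ephb4 (2.26), and those to the left of the lower line are Epha7, Sema4d and Sema4a.

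Among co-receptors and signalling partners, the shares past 2-fold higher on each array were near those of all genes, but not between the arrays. Of 56 listed partner genes, 54 were named on the array. At day 1, 9 of 39 with a ratio were at least 2-fold higher (23.1%, against 19.6% of all genes) and 4 lower (10.3%, against 11.1%), with a median of 0.02. At day 3, 3 of 43 were higher (6.98%, against 7.37%) and 1 lower (2.33%, against 6.84%), with a median of 0.20. Between the arrays, 9 of 39 partners had a ratio at least 2-fold higher at day 3 (23.1%, against 12.1% of all genes). Another 5 had a lower one (12.8%, against 16.8%), and the median difference was 0.21. With the density peak at 0, it was 6 higher and 11 lower. Neuropilin-1 (Nrp1), the co-receptor of Sema3a that also binds vascular endothelial growth factor, was at 0.17 at day 1 and 1.64 at day 3, and Nrp2 had no ratio on either array. Past 2-fold on both arrays were Rnd1, a small GTPase that binds plexins (1.32 and 1.56), and Chn1, a Rac regulator downstream of EphA4 (-1.11 and -1.86). The highest partners at day 1, singled out after their values were seen, were Tyrobp (4.91), an adaptor of myeloid receptors, and the kinase Fes (4.24), both genes of leukocytes.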

How the data were processed

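RNA of bone marrow stromal cells was amplified as amino allyl RNA and coupled to dyes, per the labels' protocols. The deposited values are log2 ratios as read here, 1 per probe and array. The authors' values were already centred, with medians of 0.0003 and -0.0001. Scanner, normalisation and the filter behind empty entries (40.5% and 34.3% of 23473 probes) are not given in the sources used here. No intensities were used, so signal over background is unknown, and precision is limited by the number of arrays.

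Probes of a gene were averaged and each array's gene median was subtracted, which left 10451 genes at day 1 and 11429 at day 3. The size rule was tested on simulated data whose spread was smaller than that between probes on these arrays. That test therefore gives no error rate for members with 1 probe. Members, lists and rules were chosen with earlier results of these data known. Values are printed for every member with a ratio. Older symbols on marker and partner lists were matched through RefSeq names. Alternatives changed centring, probe choice, gene names, genes entering, size rule, endothelial list and summary. Python 3.11.15 with pandas 2.3.3, numpy 2.4.6 and scipy 1.17.1 was used.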

Additional observations from a re-analysis of the deposited data

Results flagged for a closer look

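For 7 members the ratios at day 1 and day 3 lay on opposite sides of 0 and differed by at least 2-fold. The difference between the time points was not tested, since each has 1 array. The log2 ratio at day 3 minus that at day 1 was 2.26 for Ephb4, 2.11 for Sema3e, 1.74 for Efnb2, 1.67 for Efna1, 1.31 for Plxnd1 and 1.26 for Sema3c, all from below to above 0, and -1.35 for Epha7, from above to below. With the density peak at 0, Plxnd1 was above 0 on both arrays (0.02 at day 1) and 6 of the 7 kept opposite signs. With ribosomal protein genes at 0, 3 of the 7 did, namely Ephb4, Sema3c and Sema3e. Efna1 (0.03), Efnb2 (0.28) and Plxnd1 (0.32) were then above 0 at day 1, and Epha7 (0.13) above 0 at day 3. The differences stayed at least 2-fold under either centring, but each centring moved all differences alike, by too little to change that. The spread between probes would give a difference an SD of 0.97 if it were independent on the arrays.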

How the results depend on the processing

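Of 252 values recomputed under 11 alternatives, 233 stayed close to the main value and 19 moved. Close meant a count within 1.5 times or a median within the spread between probes. Much of this was fixed in advance. Each member has 1 probe, so the choice of probe can change members only through centring. Centring moved all genes by at most 0.49 at day 1 and 0.53 at day 3, less than the spread of 0.78 and 0.57. No centring could therefore move a median by this rule. No median of at least 1 in size changed sign, but these shifts were too small to turn one. No paired analysis was possible because each time point has 1 array.

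With ribosomal protein genes at 0, 15 members were higher and 0 lower at day 3, and 1 was lower and 6 were higher at day 1. With the density peak at 0, 3 were lower and 6 higher at day 1. Under either centring 1 endothelial member, Sema3g, was higher at day 1, as it was with a 1.5-fold rule. At 1.5-fold, 9 members were lower at day 1, 12 higher and 4 lower at day 3, and 14 higher and 5 lower between the days. At 3-fold, 1 was lower at day 1, 1 higher (Sema3g) and 0 lower at day 3, and 5 higher between the days, and 1 endothelial member was higher at day 3. The narrow endothelial list (Efnb2, Ephb4, Plxnd1, Sema3g) had 3 higher at day 3. Over genes on both arrays the day 3 median of ephrin-B ligands was 0.94, from 2 genes.

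Medians near 0 had the other sign in 10 cases. With ribosomal protein genes at 0 the medians at day 1 were 0.30 for all members, 0.38 for endothelial members, 0.03 for ephrin-A ligands, 0.36 for ephrin-B ligands and 0.10 for plexins, and 0.31 for plexins at day 3. With the density peak at 0 they were 0.0031, 0.08 and 0.06 for members, endothelial members and ephrin-B ligands at day 1. Semaphorins on both arrays had -0.40 at day 1. Signal over background could not be examined.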
